A study of Mus musculus with 6 samples.

Results

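The cadherin genes (Cdh followed by a number) and the non-clustered protocadherin genes (Pcdh followed by a number, and Pcdh11x) were compared between motor neurons (MNs) derived from control and spinal muscular atrophy (SMA) mouse embryonic stem cells (mESCs). The genes were taken by symbol from the authors' deposited table of 41945 genes and loci, and a symbol with more than 1 entry was represented by its most abundant one. This gave 34 genes of 34433 symbols, 22 of them cadherins and 12 protocadherins. FPKM stands for fragments per kilobase of exon, scaled to the number of mapped fragments, so levels can be compared between genes.

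Control MNs came from the Hb9 line (labelled wildtype, SMN2+/+;mSmn+/+ in the study's methods) and SMA MNs from the A2 line (SMN2+/+;mSmn-/-), both of FVB/N background. Both lines carry the human SMN2 transgene and an eGFP reporter under the Hb9 promoter, and both were differentiated with 1 µM retinoic acid and 1 µM Smoothened agonist for 5 days before eGFP-positive cells were collected by FACS. Each genotype is represented by 1 mESC line with 3 samples, so genotype and line cannot be told apart. The table holds 1 FPKM value per genotype, combined by the authors from the 3 samples. No value of a single sample was used, so no SD, n or test accompanies the values here and no difference has a replicate check. The number of reads behind each value is unknown. Differences are given as the log2 ratio of FPKM in A2 SMA over Hb9 control MNs, and "at least 2-fold" stands for a ratio at or beyond 1 on that scale in either direction.

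Classical cadherins are calcium-dependent adhesion proteins that bind cadherins on neighboring cells and are tied to the actin cytoskeleton through catenins. Type I members include E-cadherin (Cdh1), found in epithelia and in pluripotent stem cells, and N-cadherin (Cdh2), which takes its place when the neural plate becomes the neural tube. Type II members are expressed in different combinations by pools of spinal MNs, where they take part in the sorting of MN cell bodies into columns and nuclei. The delta protocadherins are a related family, mostly of the nervous system, whose tails lack the catenin-binding regions of classical cadherins.

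The targeted gene Smn1 was at 137 FPKM in Hb9 control and 5.26 FPKM in A2 SMA MNs. Of 9 MN markers in the table, Mnx1, which encodes Hb9, was at 41.2 and 44.2 FPKM. Of the 8 markers that reached 1 FPKM in either genotype, however, 7 were at least 2-fold lower in A2 SMA MNs. This compares with 22.4% of all loci at that level. Relative to the median of all loci 6 of the 8 were, beside 16.5% of loci. Of the 8, 3 reached that level in Hb9 control MNs only. Their defining members Lhx3 (27.6 and 0.348 FPKM) and Chat (15.5 and 0.344 FPKM) were near 0 in A2 SMA MNs, and the marker sum was 322 FPKM in Hb9 control and 67.5 FPKM in A2 SMA MNs. All 10 pluripotency markers were at least 2-fold higher in A2 SMA MNs, beside 6.83% of all loci, with sums of 287 and 1876 FPKM. Of 10 epithelial markers 9 were higher, 5 of them at least 2-fold, beside the same 6.83%, with sums of 208 and 367 FPKM. Of 9 fibroblast markers 5 were at least 2-fold lower, beside 22.4% of all loci, but 2 relative to the median of all loci, beside 16.5%. Their sums were 75.2 and 39.8 FPKM. Neural progenitor markers are of cells that also express Cdh2 and several type II cadherins. At least 2-fold lower were 7 of these 8 genes, beside 22.4% of all loci, with sums of 900 and 48.1 FPKM. Endoderm markers had 3 of 7 genes at least 2-fold lower, beside 22.4% of all loci, and 1 relative to the median of all loci, beside 16.5%. Their sums were 149 and 35.1 FPKM, of which Cxcr4 held 105 and 7.24 FPKM. Of 6 muscle markers 1 passed the limit, Des, at 19.4 and 26.3 FPKM, and the list summed to 20.9 and 27.6 FPKM. In bulk RNA, fewer cells of a type and less RNA per cell cannot be told apart, and the part of these marker differences in the cadherin levels was not tested.

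Most cadherins and protocadherins were lower in A2 SMA MNs, while E-cadherin and P-cadherin were higher. Of the 34 genes, 21 reached 1 FPKM in at least 1 genotype with a value above 0 in the other, and 13 did not. Among the 21, 15 were at least 2-fold lower in A2 SMA MNs, against 22.4% of the 14926 loci with a symbol that met the same limit. A further 3 (Cdh1, Cdh3 and Cdh5) were at least 2-fold higher, against 6.83% of all loci. The remaining 3 (Cdh4, Pcdh1 and Pcdh19) were lower by less than 2-fold. A limit on either genotype admits genes because they are high in 1 of them, and here 10 genes reached it only in Hb9 control MNs and 1 (Cdh5) only in A2 SMA MNs. Among the 10 genes with at least 1 FPKM in both genotypes, 6 were at least 2-fold lower and 2 higher, beside 17.8% and 4.97% of 13252 loci. With a mean of at least 1 FPKM over the genotypes, 14 of 19 genes were lower and 3 higher, beside 21.3% and 6.17% of 14366 loci. Without any limit, 23 of the 33 genes above 0 in both genotypes were at least 2-fold lower and 4 higher, beside 24.5% and 8.41% of 20595 loci.

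The median log2 ratio was -2.37 over the 21 genes and -0.29 over the 14926 loci. Relative to that median locus, 14 of the 21 genes were at least 2-fold lower and 3 higher, beside 16.5% and 10.4% of the loci. Relative to it, the counts were 5 and 2 with at least 1 FPKM in both genotypes (12% and 8.58% of loci), 13 and 3 with the mean (15.5% and 9.74%), and 21 and 4 without a limit (18.1% and 12.5%). Among the 21 genes the one that crossed the limit was Cdh24, at -1.001 as deposited and -0.71 relative to the median locus, and without a limit Cdh19 (-1.03 and -0.74) crossed as well. The 14926 loci themselves were lower in A2 SMA MNs in 65.9% of cases.

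**Figure D1:**
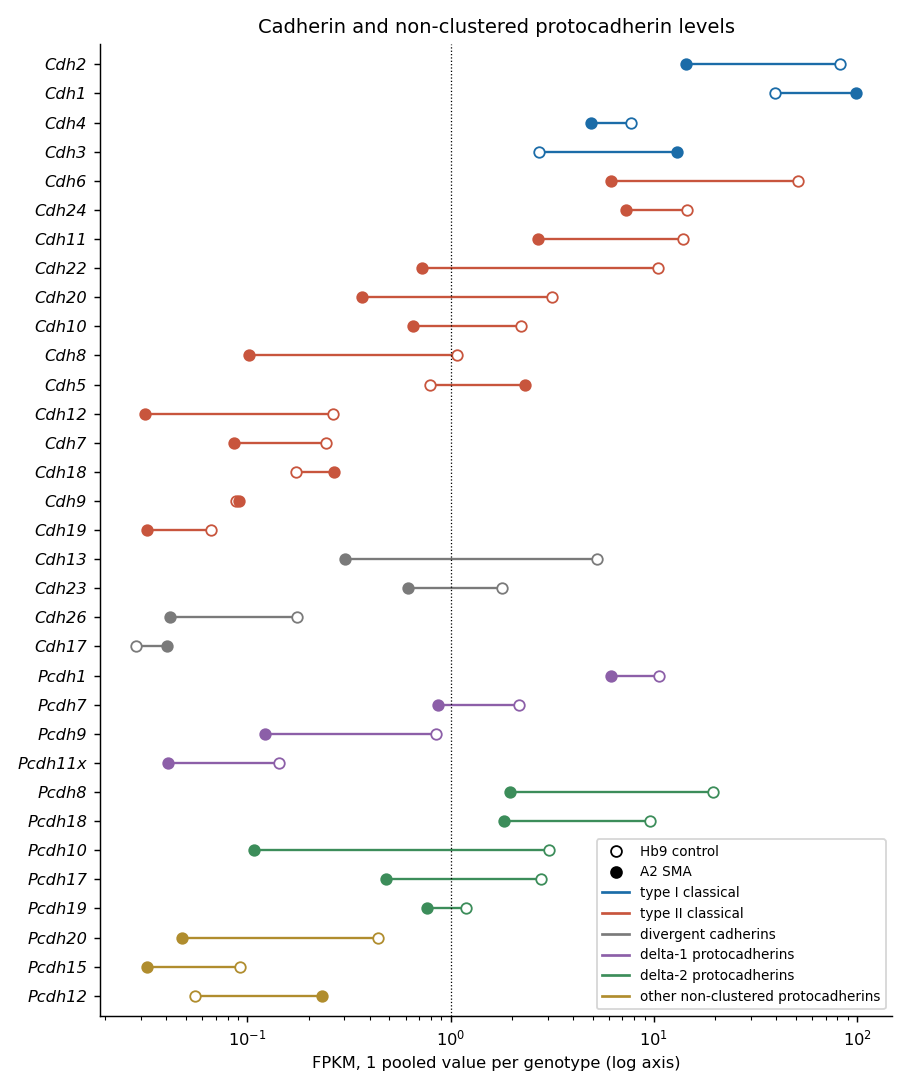
Level of each gene in Hb9 control (open circles) and A2 SMA MNs (filled circles), in FPKM on a log axis, with 1 pooled value per genotype and colors for the classes. Filled circles lie left of open ones for 26 of the 33 genes shown, and Cdh1 and Cdh3 run the other way. The dotted line marks 1 FPKM, and Cdh16, listed at 0 in both genotypes, is left out.

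The order of abundance differed between the genotypes. In Hb9 control MNs the highest level was that of Cdh2 (82.0 FPKM), followed by Cdh6 (51.5 FPKM), Cdh1 (39.7 FPKM), Pcdh8 (19.5 FPKM), Cdh24 (14.6 FPKM) and Cdh11 (13.9 FPKM). In A2 SMA MNs it was that of Cdh1 (99.3 FPKM), followed by Cdh2 (14.4 FPKM), Cdh3 (13.0 FPKM), Cdh24 (7.32 FPKM), Pcdh1 (6.18 FPKM) and Cdh6 (6.15 FPKM). Without replicate values it cannot be said which neighbors in these orders differ. Summed over the 34 genes, the level was 288 FPKM in Hb9 control and 166 FPKM in A2 SMA MNs.

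Type I cadherins moved in opposite directions. Cdh1, on chromosome 8 of NCBI m37 from 109127251 to 109194146, was at 39.7 FPKM in Hb9 control and 99.3 in A2 SMA MNs. This is a log2 ratio of 1.32 (2.50-fold), and 4.46% of all loci had a ratio as high. Cdh2, on chromosome 18 from 16726383 to 16967755, was at 82.0 and 14.4 FPKM, a log2 ratio of -2.51 (5.69-fold lower in A2 SMA MNs), and 6.04% of all loci had a ratio as low. The table has a second entry for Cdh2 over the same interval, at 47.3 and 9.14 FPKM, whose log2 ratio was -2.37. The sum of both entries gave -2.46. Relative to the median locus the log2 ratios were 1.61 for Cdh1 and -2.22 for Cdh2.

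The Cdh1 level was 0.484 times that of Cdh2 in Hb9 control MNs and 6.89 times that of Cdh2 in A2 SMA MNs. Of their combined FPKM, Cdh1 made up 32.6% in Hb9 control and 87.3% in A2 SMA MNs. With both Cdh2 entries summed, these shares were 23.5% and 80.8%. The combined FPKM was 122 and 114, and 169 and 123 with both Cdh2 entries summed.

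Cdh3, which encodes P-cadherin of epithelia and placenta, was at 2.73 FPKM in Hb9 control and 13.0 in A2 SMA MNs. Its log2 ratio of 2.25 was the highest of the 21 genes, and 1.23% of all loci had a ratio as high. Cdh4, which encodes R-cadherin of the retina and nervous system, was at 7.74 and 4.90 FPKM, a log2 ratio of -0.66 that became -0.37 relative to the median locus. Its entry is shared with the gene model Gm10711. Over these 4 type I genes the summed level was 132 FPKM in both genotypes, and 179 and 141 FPKM with both Cdh2 entries summed.

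Cdh3 and Cdh1 lie 46.4 kb apart on chromosome 8, with the gene model Gm10073 between them at 0.557 and 1.95 FPKM. The next gene beyond Cdh1, Tmco7, starts 12.8 kb away and was at 9.47 and 11.6 FPKM, a log2 ratio of 0.29. On the side of Cdh3, 6030452D12Rik ends 3.55 kb away and was listed at 0 in both genotypes. The next interval, which ends 85.2 kb away, is given to several genes whose ratios differed. Among them Prmt7 was at 72.6 and 70.6 FPKM (-0.04), Zfp90 at 16.3 and 6.02 FPKM (-1.44) and Smpd3 at 11.7 and 1.13 FPKM (-3.37), and these 3 were named after their values were seen. Gm10073 was higher in A2 SMA MNs (log2 ratio 1.80) at a low level.

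**Figure D2:**
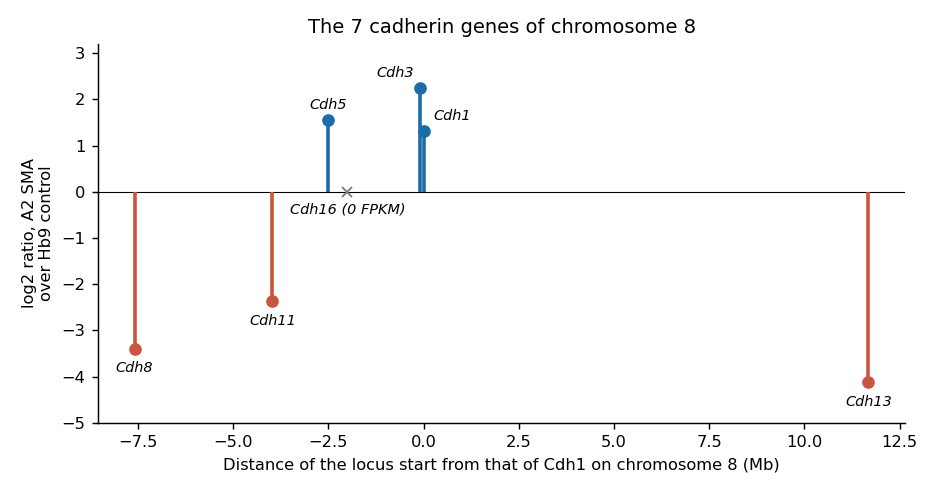
Log2 ratio of the 7 cadherin genes on chromosome 8 (vertical axis) against the distance of each locus start from that of Cdh1 in Mb (horizontal axis). Cdh5, Cdh3 and Cdh1 were higher in A2 SMA MNs, at 1.55, 2.25 and 1.32, while Cdh8, Cdh11 and Cdh13 on either side were lower. Cdh16, listed at 0 FPKM in both genotypes, has no ratio and is marked by a cross.

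Chromosome 8 holds 7 of the 34 genes, more than any other chromosome in the list. All 3 genes that were at least 2-fold higher among the 21 are on it, and so are Cdh8, Cdh11 and Cdh13, with log2 ratios of -3.39, -2.37 and -4.13. Chromosome 15 holds the type II genes Cdh6, Cdh9, Cdh10, Cdh12 and Cdh18, of which Cdh6 and Cdh10 were above 1 FPKM and lower in A2 SMA MNs. Chromosome 14 holds Cdh24, Pcdh8, Pcdh17, Pcdh20 and Pcdh9. Of these, Pcdh8, Pcdh17 and Cdh24 passed the 1 FPKM limit and were at least 2-fold lower, Cdh24 at the limit itself and not relative to the median locus.

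Type II cadherins were lower in A2 SMA MNs with 1 exception among those above 1 FPKM. Of the 13 genes, 8 passed the limit, 7 of them at least 2-fold lower (6 relative to the median locus) and Cdh5 higher, beside 22.4% and 6.83% of all loci. Of the 8, 4 reached the limit only in Hb9 control MNs and Cdh5 only in A2 SMA MNs. Summed over the 13 genes, the level was 98.6 FPKM in Hb9 control and 20.8 FPKM in A2 SMA MNs. The type II share of all type I and type II FPKM was 42.7% in Hb9 control and 13.7% in A2 SMA MNs, and 35.5% and 12.9% with both Cdh2 entries summed.

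Cdh6 was the most abundant type II gene in Hb9 control MNs. It lies on chromosome 15 from 12958433 to 13103416 with a level of 51.5 FPKM in Hb9 control and 6.15 FPKM in A2 SMA MNs, giving a log2 ratio of -3.06 (8.36-fold lower). Its share of classical cadherin FPKM was 22.3% and 4.04%. Cdh22, on chromosome 2 from 164937007 to 165060353, had the lowest ratio of the type II genes, -3.87, with 10.5 and 0.719 FPKM. With 1 FPKM added to each value it was -2.74, and that of Cdh6 was lower, at -2.87. Both genes were well expressed in Hb9 control MNs, and only Cdh6 stayed above 1 FPKM in A2 SMA MNs.

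The RefSeq sequences of the 250 bases before the start of these genes are shown because Cdh6 has the highest level in Hb9 control MNs and Cdh22 the lowest log2 ratio of the type II genes. They are from GRCm38.p6, the minus strand of chr15:13173676-13173925 for Cdh6 and of chr2:165234738-165234987 for Cdh22, a build other than that of the table. Capitals mark CG dinucleotides.
Cdh6: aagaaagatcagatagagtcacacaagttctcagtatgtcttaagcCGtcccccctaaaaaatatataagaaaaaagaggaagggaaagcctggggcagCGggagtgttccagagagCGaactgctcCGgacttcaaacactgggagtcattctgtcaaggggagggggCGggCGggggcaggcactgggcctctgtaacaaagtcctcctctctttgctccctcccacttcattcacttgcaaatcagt
Cdh22: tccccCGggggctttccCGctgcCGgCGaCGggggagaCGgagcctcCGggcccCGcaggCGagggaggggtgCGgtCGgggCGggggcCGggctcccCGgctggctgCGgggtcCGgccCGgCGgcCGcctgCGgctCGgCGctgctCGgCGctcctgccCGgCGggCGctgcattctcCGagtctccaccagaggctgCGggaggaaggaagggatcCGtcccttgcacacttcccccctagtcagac
The window holds 6 CG dinucleotides in Cdh6 and 30 in Cdh22.

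Cdh11, which is also common in mesenchymal cells, was at 13.9 FPKM in Hb9 control and 2.68 FPKM in A2 SMA MNs (log2 ratio -2.37). The fibroblast markers, a list of another cell type that expresses Cdh11, had sums of 75.2 and 39.8 FPKM. The most abundant of them, Col1a2 (20.1 and 8.93 FPKM), Col1a1 (18.9 and 9.41 FPKM) and Col3a1 (15.9 and 6.57 FPKM), were lower in A2 SMA MNs. S100a4 was at 0.325 FPKM and listed at 0 in A2 SMA MNs, while Thy1 (0.970 and 2.20 FPKM) and Dcn (3.77 and 4.15 FPKM) were higher. The part of these markers in the Cdh11 level was not tested. Cdh24 was at 14.6 and 7.32 FPKM (-1.001), which is at the 2-fold limit. Cdh20 was at 3.16 and 0.367 FPKM (-3.11), Cdh10 at 2.22 and 0.650 FPKM (-1.77) and Cdh8 at 1.08 and 0.102 FPKM (-3.39). With 1 FPKM added to each value these differences shrank, to -1.61 for Cdh20, -0.97 for Cdh10 and -0.91 for Cdh8.

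Cdh5, which encodes VE-cadherin of endothelial cells, was at 0.796 FPKM in Hb9 control and 2.33 FPKM in A2 SMA MNs, giving a log2 ratio of 1.55 that was 0.89 with 1 FPKM added. Of 7 endothelial markers, 6 were above 1 FPKM in either genotype, with 1 at least 2-fold higher and 2 lower, beside 6.83% and 22.4% of all loci. The 2 lower ones reached the limit in Hb9 control MNs only and so had to be lower. Relative to the median locus the counts were 3 and 2, beside 10.4% and 16.5% of loci. Pecam1 was at 21.8 and 68.7 FPKM, Tek at 1.34 and 2.54 FPKM and Esam at 3.75 and 6.29 FPKM. Lower in A2 SMA MNs were Kdr (1.36 and 0.513 FPKM), Cldn5 (2.01 and 0.715 FPKM), Tie1 (4.03 and 3.45 FPKM) and Emcn (0.900 and 0.423 FPKM). The list summed to 35.2 and 82.6 FPKM, of which Pecam1 alone held 21.8 and 68.7 FPKM. Its part in the Cdh5 level was not tested. The other type II genes, Cdh7, Cdh9, Cdh12, Cdh18 and Cdh19, were at 0.268 FPKM or less in both genotypes.

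**Figure D3:**
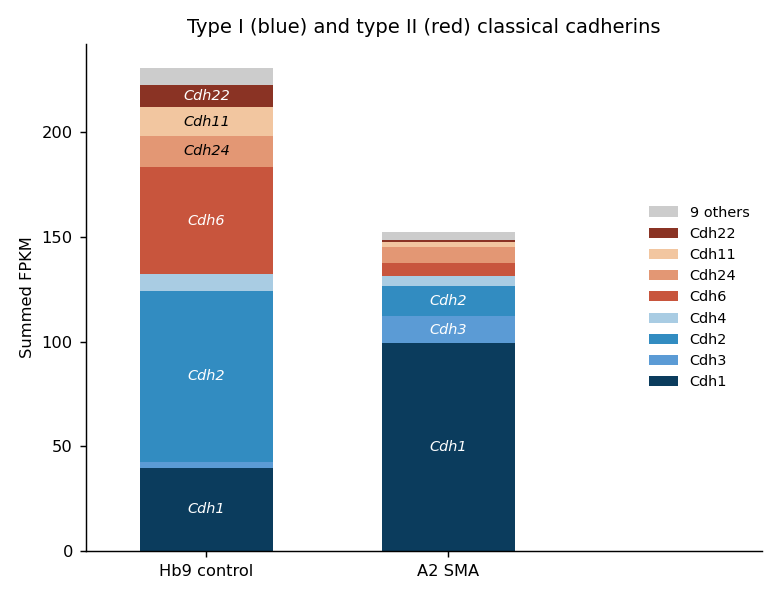
Summed FPKM of the type I (blue) and type II (red) classical cadherins in each genotype, stacked by gene, with 9 genes of low level in gray. With the higher Cdh2 entry only, the type I part reached 132 FPKM in both bars, but Cdh2 filled most of it in Hb9 control MNs and Cdh1 in A2 SMA MNs, and the type II part was 98.6 and 20.8 FPKM.

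Cadherins with pool-restricted expression in spinal MNs were taken as a list of 10 genes written from general knowledge: Cdh6, Cdh7, Cdh8, Cdh9, Cdh10, Cdh11, Cdh12, Cdh13, Cdh20 and Cdh22. Of these, 7 had at least 1 FPKM in either genotype, all 7 in Hb9 control MNs, and each was at least 2-fold lower in A2 SMA MNs, beside 22.4% of all loci. However, 5 of the 7 reached the limit in Hb9 control MNs only and so had to be lower in A2 SMA MNs. The other genes, Cdh6 and Cdh11, had at least 1 FPKM in both genotypes and were at least 2-fold lower, beside 17.8% of loci. Without the limit, 9 of the 10 genes were at least 2-fold lower, beside 24.5% of loci, and Cdh9 had 0.0880 and 0.0905 FPKM. The list summed to 88.2 FPKM in Hb9 control and 11.2 FPKM in A2 SMA MNs, of which Cdh6 made up the largest part in both. Most MN markers were lower as well, with sums of 322 and 67.5 FPKM, of which Mnx1, which was not lower, held 41.2 and 44.2 FPKM, and their part in the difference was not tested.

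The divergent cadherins lack catenin-binding tails, and the 2 that passed the limit did so in Hb9 control MNs only. Cdh13, or T-cadherin, is held to the membrane by a lipid anchor and was at 5.28 FPKM in Hb9 control and 0.302 in A2 SMA MNs. The resulting log2 ratio was -4.13, and 1.52% of all loci had a ratio as low. Cdh23, a component of the tip links of hair cells, was at 1.79 and 0.617 FPKM (-1.54). With 1 FPKM added the log2 ratios were -2.27 for Cdh13 and -0.79 for Cdh23, the latter within 2-fold. Cdh17 and Cdh26, cadherins of intestinal and other epithelia, were at 0.176 FPKM or less in both genotypes, and Cdh16 of the kidney was listed at 0 in both.

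Non-clustered protocadherins were mostly lower in A2 SMA MNs. All 7 of the 12 genes above 1 FPKM in either genotype were lower, beside 65.9% of all loci, and 5 of them at least 2-fold, beside 22.4%. Of the 7, 4 reached the limit only in Hb9 control MNs. Summed over the 12 genes, the level was 50.4 FPKM in Hb9 control and 12.7 FPKM in A2 SMA MNs. The delta-2 genes summed to 36.1 and 5.14 FPKM and the delta-1 genes to 13.8 and 7.22 FPKM.

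Pcdh8, which has roles in paraxial mesoderm and at synapses, was the most abundant non-clustered protocadherin of Hb9 control MNs. It lies on chromosome 14 from 80166587 to 80171119 with a level of 19.5 FPKM in Hb9 control and 1.96 FPKM in A2 SMA MNs, giving a log2 ratio of -3.31 (9.95-fold lower). Pcdh10, which takes part in axon growth and guidance in the forebrain, lies on chromosome 3 from 45182320 to 45238488 with levels of 3.05 and 0.108 FPKM. Its log2 ratio of -4.82 was the lowest of the 34 genes, and 0.683% of all loci had a ratio as low. With 1 FPKM added to each value it was -1.87 and no longer the lowest, as that of Pcdh8 was -2.79.

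The RefSeq sequences before the start of both genes are shown as the delta-2 genes of highest level and lowest ratio. They are from GRCm38.p6, the minus strand of chr14:79771313-79771562 for Pcdh8 and the plus strand of chr3:45378148-45378397 for Pcdh10, with CG dinucleotides in capitals.
Pcdh8: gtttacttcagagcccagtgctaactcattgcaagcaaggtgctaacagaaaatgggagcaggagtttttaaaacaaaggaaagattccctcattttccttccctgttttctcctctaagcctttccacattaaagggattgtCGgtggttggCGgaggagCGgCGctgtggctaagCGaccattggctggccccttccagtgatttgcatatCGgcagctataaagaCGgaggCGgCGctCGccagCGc
Pcdh10: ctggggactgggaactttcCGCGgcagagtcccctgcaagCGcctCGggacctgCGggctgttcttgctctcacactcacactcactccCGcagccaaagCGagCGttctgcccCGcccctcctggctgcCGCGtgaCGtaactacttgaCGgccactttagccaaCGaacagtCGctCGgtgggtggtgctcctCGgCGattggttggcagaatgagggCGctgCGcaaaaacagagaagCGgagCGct
The windows hold 11 CG dinucleotides in Pcdh8 and 22 in Pcdh10. Pcdh8 has the letters TATAAA 30 bases before its start. The windows of Cdh6, Cdh22 and Pcdh10 hold none.

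Start sequences were given for 21 of the 34 genes. Cdh1, Cdh2, Cdh3, Cdh4, Cdh5, Cdh11 and Cdh13 were among those without one, so no motif was searched for in them. The median number of CG dinucleotides in the 250 bases was 10 over these 21 and 6 over all 32851 windows. Both strands were searched for 5 motifs. CACCTG, an E-box bound by the Zeb and Snail repressors, was in 2 of the 21 windows (Cdh7 and Pcdh15) and in 17.2% of all windows. TAATTA, bound by homeodomain proteins, was in 1 (Cdh7) and in 4.84% of all windows. CAGCTG was in 2 (Cdh9 and Cdh12) and in 13% of all windows, the E-box CAGATG in 2 (Cdh7 and Cdh24) and in 14.4%, and TATAAA in 2 (Pcdh8 and Pcdh15) and in 12.4%. A match is a run of letters and not a site of binding.

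Among the other delta-2 genes, Pcdh18 was at 9.58 FPKM in Hb9 control and 1.83 FPKM in A2 SMA MNs (log2 ratio -2.39), and Pcdh17 was at 2.79 and 0.483 FPKM (-2.53, and -1.36 with 1 FPKM added). Pcdh19, the X-linked gene of an epilepsy that mainly affects females, was at 1.19 and 0.766 FPKM (-0.64). The group therefore ranged from -4.82 to -0.64, and Pcdh19 alone of its 5 genes stayed within 2-fold.

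In the delta-1 group, Pcdh1 was the most abundant gene, with 10.6 FPKM in Hb9 control and 6.18 in A2 SMA MNs. The resulting log2 ratio was -0.77, and -0.48 relative to the median locus. Pcdh7 was at 2.18 and 0.869 FPKM (-1.33), a difference that fell within 2-fold (-0.96) when both genotypes were scaled to the same upper quartile of FPKM. Pcdh9 and Pcdh11x were under 1 FPKM in both genotypes, at 0.851 and 0.122 FPKM and at 0.143 and 0.0406 FPKM. Outside the delta groups, Pcdh12 of endothelial cells (0.0552 and 0.232 FPKM), Pcdh15 of hair cell tip links (0.0922 and 0.0319 FPKM) and Pcdh20 (0.440 and 0.0475 FPKM) were all at low levels.

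**Figure D4:**
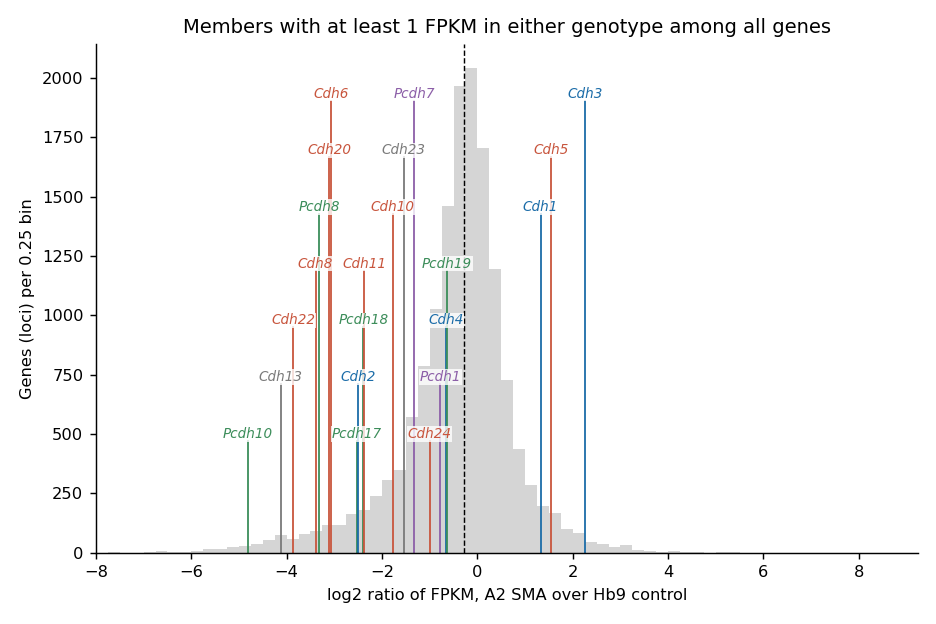
Log2 ratios of the 21 genes that passed the 1 FPKM limit (colored lines, by class as in the plot of levels; line height only separates the names) over the histogram of 14926 loci, with bins of 0.25 and the median of -0.29 dashed. Lines lie between -4.82 for Pcdh10 and 2.25 for Cdh3, with 15 at or below -1.

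Many of these genes are long, and long genes tended to be lower in A2 SMA MNs as a whole. The interval of the 21 genes had a median length of 124 kb, against 30.2 kb for the 14926 loci. Over 100 kb, 10 of 12 of the genes were at least 2-fold lower, beside 31.9% of the 2806 loci of that length. At 100 kb or less, 5 of 9 were, beside 20.2% of 12120 loci. However, 10 of the 21 genes reached 1 FPKM in Hb9 control MNs only and so had to be lower. All of these except Pcdh10 and Pcdh17 are over 100 kb, so the counts by length depend on that limit. Pcdh8 was the shortest of the 21 genes, with 4.53 kb, and had a log2 ratio of -3.31.

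Catenins link classical cadherins to actin, and their levels split by type. The catenins found in most cells differed by less than 2-fold between the genotypes. Ctnnb1, which encodes beta-catenin, was at 1540 FPKM in Hb9 control and 1603 FPKM in A2 SMA MNs (log2 ratio 0.06, and 0.35 relative to the median locus). Ctnna1, which encodes alpha-E-catenin, was at 147 and 197 FPKM (0.42, relative 0.71), and Jup, which encodes plakoglobin, at 60.1 and 77.7 FPKM (0.37, relative 0.66). Ctnnd1, which encodes p120-catenin, was at 149 and 131 FPKM, a log2 ratio of -0.19 that became 0.10 relative to the median locus. The neural forms were lower. Ctnna2, which encodes alpha-N-catenin, was at 31.0 and 1.49 FPKM (-4.38), and Ctnnd2, which encodes delta-catenin, was at 4.79 and 0.583 FPKM (-3.04). Ctnna3 was at 0.0718 and 0.0949 FPKM. The entries of Ctnna1, Ctnna2 and Ctnnd1 have the Cuffdiff status FAIL, with which the authors' program marks loci whose comparison it could not complete. None of the 34 cadherin and protocadherin entries has it.

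Of 10 genes that link junctions to actin or lie beside cadherins in them, 3 were at least 2-fold lower in A2 SMA MNs, beside the 22.4% of all loci given above, and none at least 2-fold higher. Relative to the median locus 1 was at least 2-fold higher, Lima1, at 30.8 and 57.6 FPKM (log2 ratio 0.91, relative 1.20). The 3 lower genes were Ablim1 (7.44 and 2.59 FPKM), Pvrl1 (18.9 and 6.80 FPKM) and Pvrl3 (100.2 and 38.7 FPKM), the last 2 of which encode nectins. The most abundant linkers were Actn4 (273 and 443 FPKM), Mllt4 (118 and 138 FPKM), which encodes afadin, and Actn1 (116 and 124 FPKM). The status FAIL stands on 6 of the 10 linkers, among them Actn4, Actn1, Lima1 and Pvrl3. Actn4 reached a log2 ratio of 1.06 when scaled to the upper quartile, from 0.70.

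Transcriptional repressors of Cdh1 were also read from the table. Zeb1 was at 48.6 FPKM in Hb9 control and 14.1 FPKM in A2 SMA MNs (log2 ratio -1.78), and Zeb2 was at 44.1 and 5.31 FPKM (-3.05). Both entries are shared with a second symbol, Zeb1.1 and Mir5129. The part of these levels in the Cdh1 level was not tested. Snai1 was at 9.42 and 8.45 FPKM, a log2 ratio of -0.16 that became 0.13 relative to the median locus. Of the 5 repressors above 1 FPKM in either genotype, Zeb1 and Zeb2 were the ones at least 2-fold lower, beside 22.4% of all loci. Of the proteases and protease subunits that cut cadherins, Ncstn was at 89.9 FPKM in Hb9 control and 47.2 FPKM in A2 SMA MNs, and Adam10, of status FAIL, was at 77.6 and 37.7 FPKM. The log2 ratio of Adam10 was -1.04, and -0.75 relative to the median locus.

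The table has 24 loci of the clustered Pcdha, Pcdhb and Pcdhg genes. Of these 11 passed the 1 FPKM limit, and all 11 were at least 2-fold lower in A2 SMA MNs, beside 22.4% of all loci. However, 10 of the 11 reached the limit in Hb9 control MNs only and so had to be lower, and 1 had at least 1 FPKM in both genotypes. That locus, named Pcdhga8 and of status FAIL, was at 104 and 27.8 FPKM (log2 ratio -1.90). The next most abundant were the locus of Pcdhb21 and Pcdhb22 (4.98 and 0.698 FPKM) and Pcdha5 (4.31 and 0.486 FPKM). The Pcdha genes share exons with each other, as do the Pcdhg genes, so reads of those exons cannot be assigned to 1 gene with certainty.

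Of 26 other members of the cadherin superfamily, 15 had at least 1 FPKM in either genotype, 9 of them at least 2-fold lower in A2 SMA MNs and 1 higher (8 and 1 relative to the median locus), beside 22.4% and 6.83% of all loci. With at least 1 FPKM in both genotypes, 7 of 13 were lower and 1 higher, beside 17.8% and 4.97% of loci. Celsr2, a seven-pass cadherin of planar cell polarity, was at 235 FPKM in Hb9 control and 13.9 FPKM in A2 SMA MNs (log2 ratio -4.08). Clstn1, which encodes calsyntenin-1, was at 169 and 84.1 FPKM (-1.01, and -0.72 relative to the median locus). The locus that holds Cdhr4 also holds other genes and was at 126 and 78.5 FPKM. The exception was Dsg2, which encodes a desmosomal cadherin of epithelia and mESCs, at 6.99 and 19.1 FPKM (1.45), the direction of Cdh1 and Cdh3.

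**Figure D5:**
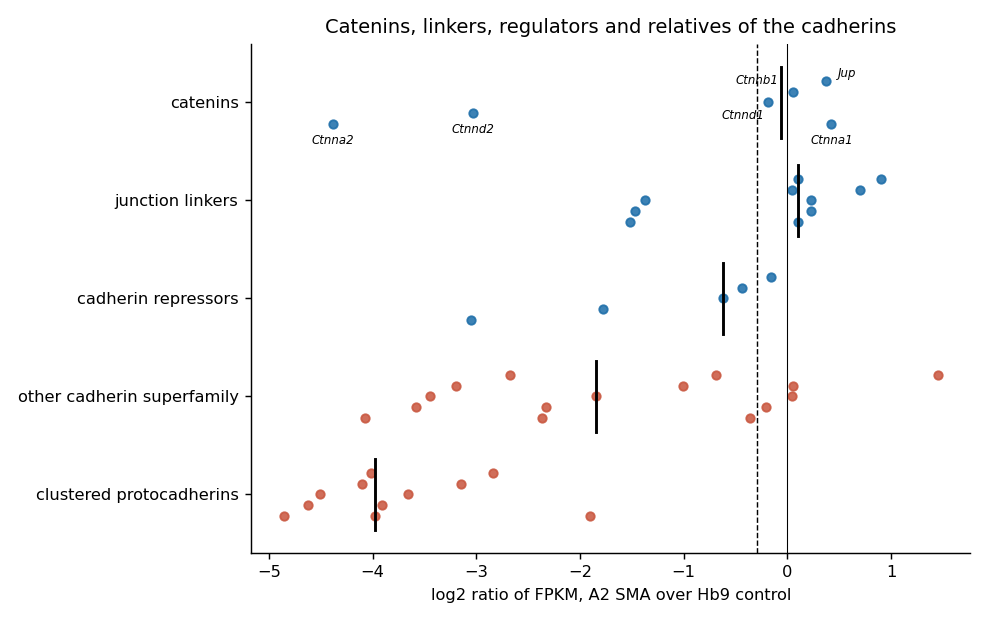
Log2 ratio of FPKM in A2 SMA over Hb9 control MNs for genes of 5 lists that passed the 1 FPKM limit, 1 point per locus, with the median of each list as a black bar, 0 as a solid line and the median of all loci dashed. The catenins split into 4 genes near 0 and Ctnna2 and Ctnnd2 at -4.38 and -3.04, and the clustered protocadherins lie between -4.86 and -1.90.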

How the data were processed

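RNA from eGFP-positive MNs of the Hb9 control and A2 SMA mESC lines (3 samples each) was read from 1 end. The authors used FastQC 0.10.1 for quality control, CutAdapt for trimming and TopHat 2.04 for mapping to NCBI m37 with its Ensembl annotation; FPKM came from Cufflinks and Cuffdiff. The deposited table holds 1 FPKM value per genotype. Its fold changes, test statistics, p-values, q-values and significance marks are the authors' own comparison and were not used. Depth per value is unknown from FPKM.

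The table was analysed in Python 3.11.15, numpy 2.4.6 and pandas 2.3.3, and figures drawn with matplotlib 3.10.9. Loci shared by several symbols counted once among all loci. Locus starts in the table count from 0 (interval lengths matched GENCODE genes for 9944 symbols on that reading and 267 on the other), so 1 was added. Log2 ratios carry no pseudocount. The code was tested on simulated data. The genes named are all members with at least 1 FPKM in either genotype, all catenins and the 3 most abundant genes of each other list, and other genes where they are exceptions, neighbors or markers and were named after their values were seen. 1 gene that this rule names is not reported here. The members and lists were chosen with earlier results of these data known. Listed genes without a row (Cdh15, Snai3, Dchs2 and others) were not analysed here. Alternatives were pseudocounts, filters, scaling, summed entries, fold limits, and leaving out status FAIL or shared loci.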

Additional observations from a re-analysis of the deposited data

How the results depend on the processing

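No paired analysis was possible because the table gives 1 value per genotype, and for the same reason no replicate could be left out in turn. A value was counted as moved when it changed by more than 1.5 times. The number of genes at least 2-fold lower was 15, and it moved to 23 with all genes above 0 in both genotypes, to 8 with a limit of 5 FPKM, and to 6 with at least 1 FPKM in both genotypes, a limit chosen after seeing the data, under which the median log2 ratio went from -2.37 to -1.69. The number at least 2-fold higher was 3 and became 1 with a 4-fold limit. With a pseudocount of 1 FPKM the median log2 ratio of the genes became -0.97, that of type II genes -1.29 and that of delta protocadherins -1.36. Without the FPKM limit the medians were -1.77 for the genes and -1.77 for type II genes. The type I median of 0.33 became 1.32 when the shared Cdh4 entry was left out. The MN pool cadherins at least 2-fold lower were 7, and 4 with a limit of 5 FPKM. With at least 1 FPKM in both genotypes they were 2. Levels under 1 FPKM carry ratios that depend on the pseudocount, and without values per sample no difference could be set against replicate error.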
